A study of Mus musculus with 18 samples.

Results

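RNA of 9 genes that mark rod photoreceptors was followed in retinal pigment epithelium (RPE) preparations from *rd1* mice at P40. The genes were taken by symbol as a list of rod phototransduction and rod identity genes. They were *Gnat1*, *Pde6a*, *Pde6b*, *Pde6g*, *Cnga1*, *Cngb1*, *Sag*, *Nrl* and *Nr2e3*, 9 of the 47729 genes in the deposited table. All 9 were in the table, and 7 passed the filter on low counts. *Nrl* and *Nr2e3* did not. By the labels, each of 9 mice gave 2 libraries, although the study's text describes fewer pairs for this comparison. In the group called Best1-Nrf2, an eye received an adeno-associated virus (AAV) with the human Nrf2 cDNA behind the Best1 promoter, which is used to limit expression to the RPE, together with AAV Best1 GFP. The fellow eye received AAV Best1 GFP alone and is called control. Both groups carried the *rd1* mutation of *Pde6b*, the GFP vector and the same age. By the study's methods, the Nrf2 vector had another capsid and was added to the GFP vector. Best1-Nrf2 eyes thus also received a higher total vector dose, and effects of Nrf2, dose and capsid cannot be told apart. RNA came from eyecups without their retina and was amplified with a low-input kit. In such bulk RNA, fewer cells of a type and less RNA per cell cannot be told apart.

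In rods, light switches on transducin, transducin lifts the inhibitory subunit off phosphodiesterase 6, and the fall of cyclic GMP closes the channel of the outer segment. Arrestin helps to end the response. Cones use the same chain with paralogous proteins, and the transcription factors *Nrl* and *Nr2e3* hold photoreceptors in the rod rather than the cone identity. Loss of *Pde6b* function kills rods early in *rd1* mice, and cones follow.

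Start-site windows from RefSeq (GRCm38.p6) were found for 6 of the 9 genes, *Pde6b*, *Cnga1*, *Cngb1*, *Sag*, *Nrl* and *Nr2e3*. *Gnat1*, *Pde6a* and *Pde6g* had no match. The 250 bases before the start are shown for *Sag*, the arrestin with the largest change in the list, for *Pde6b*, the mutated gene, and for *Cngb1*, a channel gene with no call. They lie at chr1:87803430-87803679 on the plus strand, chr5:108388123-108388372 on the plus strand and chr8:95306586-95306835 on the minus strand, and none of them overlaps an annotated exon. Capitals mark matches, on either strand, to the CRX core (TAATCC), an NRL motif (TGCTGA) or the antioxidant response element core (TGACNNNGC).
Sag: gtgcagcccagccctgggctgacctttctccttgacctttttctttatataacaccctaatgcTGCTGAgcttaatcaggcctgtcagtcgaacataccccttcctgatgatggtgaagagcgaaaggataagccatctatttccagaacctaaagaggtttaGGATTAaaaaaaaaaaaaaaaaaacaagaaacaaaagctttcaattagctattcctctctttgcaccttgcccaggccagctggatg
Pde6b: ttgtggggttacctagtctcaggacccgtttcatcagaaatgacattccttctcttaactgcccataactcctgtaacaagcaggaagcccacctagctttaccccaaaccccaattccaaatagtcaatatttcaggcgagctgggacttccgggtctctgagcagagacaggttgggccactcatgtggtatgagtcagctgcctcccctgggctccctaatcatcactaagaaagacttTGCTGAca
Cngb1: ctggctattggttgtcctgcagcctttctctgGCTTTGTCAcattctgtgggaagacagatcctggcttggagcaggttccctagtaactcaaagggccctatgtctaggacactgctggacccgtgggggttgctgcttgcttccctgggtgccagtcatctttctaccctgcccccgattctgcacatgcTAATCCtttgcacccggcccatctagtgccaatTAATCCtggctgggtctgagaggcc
The *Sag* window held an NRL motif 187 bases and a CRX core 87 bases before the start. A single NRL motif lay 8 bases before the start of *Pde6b*. *Cngb1* had CRX cores at 58 and 25 bases and an antioxidant response element core at 218 bases. Of the windows not printed, those of *Cnga1* and *Nrl* lay wholly in annotated exons, and that of *Nr2e3* for 38 bases. The *Cnga1* window held 1 CRX core and 1 antioxidant core. Over the 6 windows, the CRX core was in 3, the NRL motif in 2 and the antioxidant core in 2. Over 32817 promoters of the same length, these motifs were in 6.25%, 16.1% and 10.2%. No 2 of the matches overlapped in the windows printed. Matches of these few letters describe the sequence and are not sites of binding.

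Library totals ranged from 18956748 counts in control replicate 8 to 49598700. *Nfe2l2*, the mouse Nrf2 gene, stood at 76.7 to 133.8 CPM (counts scaled by library size) in control eyes and 275 to 704 CPM in Best1-Nrf2 eyes, with no overlap, although a table of mouse genes cannot part its reads from those of the human cDNA. Of 20 RPE markers, 0 were at 0 throughout, and the summed RPE level was 18900 to 89300 CPM in control and 28000 to 97600 CPM in Best1-Nrf2 eyes, so that the labelled tissue was present in each library. RNA of genes listed for other ocular cells was present as well. Summed levels of 27 inner retina neuron genes were 527 to 1240 CPM in control and 599 to 3130 CPM in Best1-Nrf2 eyes. *Trpm1* had the highest mean level among the tested genes of that list (mean log2 CPM, 8.88). Which cells made its RNA was not tested. By the mean log2 CPM of that list, the Best1-Nrf2 eyes of mice 6 (5.13) and 2 (3.86) stood above all other libraries, while control replicate 8 had the lowest RPE level of its group (7.99 against 9.28 or more).

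To ask whether the rod genes differed between the fellow eyes, they were read from a fit over 18958 genes with mouse as a block. *Sag* and *Pde6g* were lower in Best1-Nrf2 eyes, and no rod gene was higher. Thus, 2 of the 7 tested were called lower, where 1.13% of all genes tested were lower and 3.12% were higher (edgeR's quasi-likelihood test, Benjamini-Hochberg adjusted p under 0.05). The median log2 fold change was -0.72 over the 7 genes and -0.03 over all genes. Without mouse 1, it was -0.41 over the 6 rod genes that then passed the count filter. The other 5 tested genes, *Gnat1*, *Pde6a*, *Pde6b*, *Cnga1* and *Cngb1*, did not pass.

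**Figure D1:**
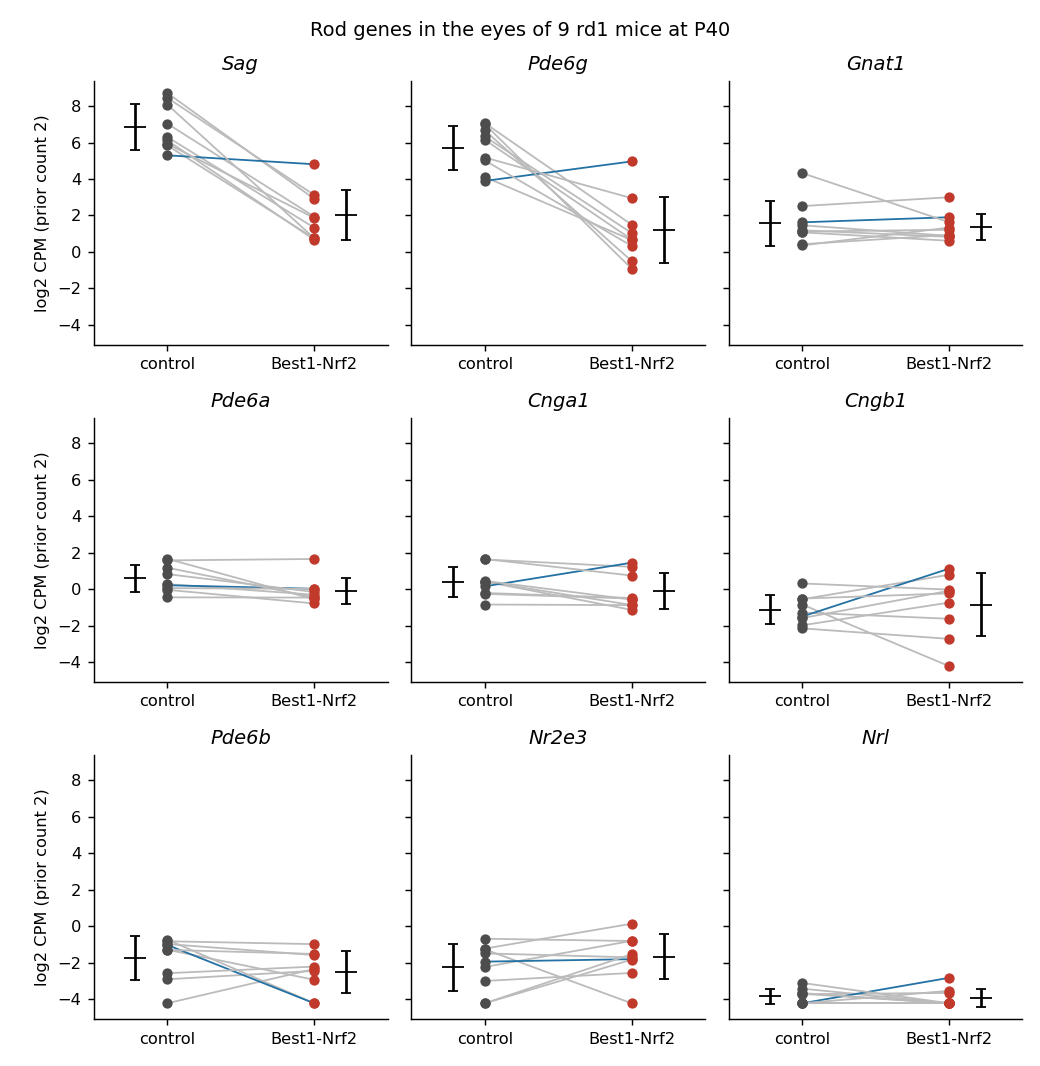
Level of each of the 9 rod genes (log2 CPM with a prior count of 2) in the 9 control and 9 Best1-Nrf2 eyes. Lines join the eyes of a mouse, with mouse 6 in blue, and bars give the mean ± SD. Control eyes have medians of 79.0 CPM for *Sag* and 70.7 CPM for *Pde6g* and of 2.23 CPM for *Gnat1*, which reaches 19.95 CPM in control replicate 8, and *Pde6g* goes up only in mouse 6.

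*Sag* encodes S-arrestin, which helps to end the light response and in mice is also made by cones. It lies at chr1:87803680-87845158 on the plus strand (GRCm38). Control eyes held 39.3 CPM at the lowest, a median of 79.0 and 421 at the highest, and Best1-Nrf2 eyes 1.54, 3.59 and 28.0 CPM. The groups did not overlap. Control replicates 1, 2 and 9 were the high ones, at 350, 421 and 271 CPM, whereas the remaining control eyes lay at 131 CPM or below. The group means were 164 ± 145 and 6.53 ± 8.45 CPM (SD, n = 9 each), and the log2 fold change was -5.03 (SE, 0.60; 95% interval, -6.33 to -3.73; edgeR adjusted p, 3.75e-04). All 9 mice were lower. The fall was between -7.33 and -4.06 on the log2 scale in 8 of them and -0.49 in mouse 6.

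*Pde6g* encodes the inhibitory gamma subunit of phosphodiesterase 6, at chr11:120447605-120453500 on the minus strand. Control eyes ranged from 14.8 to 134 CPM (median, 70.7), and Best1-Nrf2 eyes from 0.477 to 31.2 CPM (median, 1.56). The ranges overlapped through mouse 6, whose control eye was the lowest of its group and whose Best1-Nrf2 eye was the highest of its own. Means were 68.4 ± 46.1 and 5.45 ± 9.88 CPM (SD, n = 9 each). The log2 fold change was -4.79 (SE, 0.89; 95% interval, -6.73 to -2.85; edgeR adjusted p, 0.00802), with 8 of 9 mice lower. Mouse 6 was higher in its treated eye by 1.07 on the log2 scale. Without that mouse, the log2 fold changes were -5.25 for *Pde6g* and -5.40 for *Sag*. Without mice 2, 6 and 8 together, a choice made after the data were seen, they were -5.66 and -5.55. With the inner retina level as a covariate, they were -4.44 and -4.79, and both stayed past the threshold.

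*Pde6a* and *Pde6b* encode the catalytic subunits of rod phosphodiesterase, and *Pde6b* carries the *rd1* mutation. *Pde6a* had 29 to 134 counts in control eyes (median, 39) and 22 to 80 in Best1-Nrf2 eyes (median, 30). The groups overlapped almost throughout, and Best1-Nrf2 replicate 3 stood alone at the top of its group. Its log2 fold change was -0.72 (SE, 0.33; 95% interval, -1.44 to -0.004; edgeR adjusted p, 0.384), with 8 of 9 mice lower, and -0.48 without mouse 1. *Pde6b*, at chr5:108388391-108432397, had 0 to 25 counts in control eyes (median, 17) and 0 to 26 in Best1-Nrf2 eyes (median, 5). Zeros occurred in 1 control and 2 Best1-Nrf2 libraries, where 3 counts would have been 0.0773 to 0.087 CPM. The log2 fold change of -0.85 had a 95% interval from -2.65 to 0.95 (edgeR adjusted p, 0.785), and the differences within mice ran from -3.49 to 1.88. It was -0.44 without mouse 4, -0.48 without mouse 6 and -1.22 without mouse 2, and the gene failed the count filter without mouse 1, 7 or 9.

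A change in the balance of the 2 catalytic subunits was not seen either. The log2 ratio of *Pde6b* to *Pde6a* per kilobase of exon was -2.45 ± 1.26 in control and -2.48 ± 1.47 in Best1-Nrf2 eyes (SD, n = 9). The difference within mice was -0.03 (95% interval, -1.79 to 1.78; 2-sided exact sign-flip permutation test, p = 0.965; adjusted over 2 ratios, 0.965).

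*Gnat1* encodes the alpha subunit of rod transducin, at chr9:107674474-107679712. Counts were 53 to 350 in control eyes (median, 84) and 65 to 206 in Best1-Nrf2 eyes (median, 81). Control replicate 8 was far above the others at 19.95 CPM, where the next control eye was at 5.66. That library also had the lowest total and the lowest RPE level of its group, and their part in the value was not tested. The log2 fold change was -0.15 (SE, 0.36; 95% interval, -0.93 to 0.63; edgeR adjusted p, 0.940), against 0.12 without mouse 8 and -0.61 with no mouse block.

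*Cnga1* and *Cngb1* encode the subunits of the rod cyclic GMP-gated channel, at chr5:72603696-72644275 and chr8:95239045-95306585. *Cnga1* had 23 to 85 counts in control eyes (median, 46) and 19 to 92 in Best1-Nrf2 eyes (median, 27). It was lower in 8 of 9 mice, and the exception was again mouse 6. The log2 fold change was -0.53 (SE, 0.34; 95% interval, -1.28 to 0.21; edgeR adjusted p, 0.611), and -0.34 without mouse 1. *Cngb1* had 3 to 47 counts in control eyes (median, 13) and 0 to 96 in Best1-Nrf2 eyes (median, 33), and 5 of 9 mice were higher. Its log2 fold change was 0.42 (SE, 0.67; 95% interval, -1.05 to 1.89; edgeR adjusted p, 0.899), against 0.76 with no mouse block. It was 0.31, 0.23, 0.27 and 0.10 without mouse 1, 2, 5 and 6, and 0.82 without mouse 4.

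The ratio of *Cngb1* to *Cnga1* exceeded that of the fellow eye in 8 of 9 mice with Best1-Nrf2, and the mean difference was 0.75 on the log2 scale (SD, 1.82, with a 95% interval of -0.78 to 1.99). The exact sign-flip permutation test did not pass (2-sided p = 0.242; adjusted, 0.484). Mouse 4, which had no *Cngb1* count in its Best1-Nrf2 eye, pulled the other way at -3.35. Without it the difference was 1.27 and passed (adjusted p = 0.0156 by the same exact permutation test), so that this call rested on 1 mouse.

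The identity factors had few counts in both groups. *Nrl*, at chr14:55518978-55524981, drives the rod fate and gave 7 counts over the 9 control libraries and 5 over the 9 Best1-Nrf2 libraries, with 3 at most in any of them. It was at 0 in 4 control and 6 Best1-Nrf2 libraries, and a count of 0 allows up to 3 counts, or 0.0522 to 0.171 CPM depending on the library. *Nr2e3*, a nuclear receptor that represses cone genes in rods, at chr9:59942771-59960659, had 0 to 26 counts in control and 0 to 46 in Best1-Nrf2 eyes, with a median of 9 in both. Its annotated exons share 61 bases with a noncoding gene on the same strand, so the counting could split reads. With no count filter, the log2 fold changes were -0.69 for *Nrl* and 0.78 for *Nr2e3* (edgeR adjusted p, 0.938 and 0.920). *Nr2e3* passed the filter without mouse 3, 6 or 8, at 0.76, 0.80 and 0.47. It was at 1.06 without mice 2, 6 and 8, and was not called in any of these fits.

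Compared per kilobase of exon, the rod genes of control eyes were at unequal levels. *Pde6g* led with 29.5 ± 19.9 CPM per kilobase, followed by *Sag* with 18.5 ± 16.2 and *Gnat1* with 1.48 ± 1.97 (SD, n = 9). *Pde6a* (0.350 CPM per kilobase), *Cnga1* (0.230), *Nr2e3* (0.0673), *Pde6b* (0.0629), *Cngb1* (0.0506) and *Nrl* (0.00336) came next. Ranges of neighbours in this order overlapped, except those of *Cngb1* and *Nrl*. The overlap of *Sag* (lowest, 4.415 CPM per kilobase) with *Gnat1* (highest, 6.587) rested on control replicate 8 alone. Without control replicate 8, the *Gnat1* mean was 0.838 ± 0.464. In Best1-Nrf2 eyes the means were 2.35 ± 4.26 for *Pde6g*, 0.963 ± 0.664 for *Gnat1* and 0.733 ± 0.949 CPM per kilobase for *Sag*, with overlapping ranges. Without mouse 6, the means were 0.963 ± 0.999 for *Pde6g* and 0.432 ± 0.310 for *Sag*. By medians, *Gnat1* (0.749) came before *Pde6g* (0.671) and *Sag* (0.404).

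*Sag* and *Pde6g* made up 79.5% to 99.2% of all counts of the 9 genes in control eyes (median, 94.9%) and 24.4% to 85.9% in Best1-Nrf2 eyes (median, 48.7%). The other 7 genes summed to 141 to 439 counts in control (median, 267) and 138 to 357 in Best1-Nrf2 libraries (median, 189). *Sag* and *Pde6g* together were under 50% of the counts in 5 of 9 Best1-Nrf2 eyes and in 0 of 9 control eyes.

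**Figure D2:**
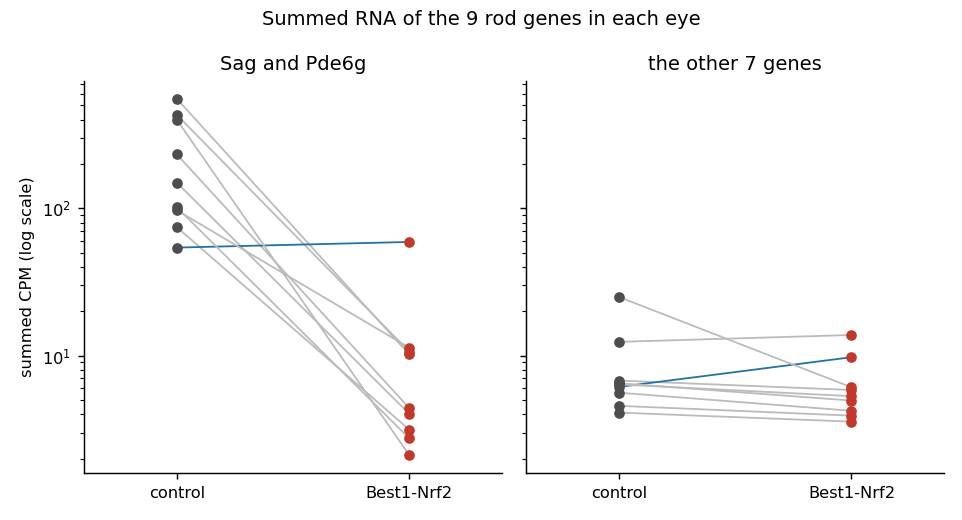
Summed CPM, on a log scale, of *Sag* and *Pde6g* (left) and of the other 7 rod genes (right) in the 9 control and 9 Best1-Nrf2 eyes, with lines joining the eyes of a mouse and mouse 6 in blue. The sum of *Sag* and *Pde6g* drops in 8 mice and is nearly level in mouse 6, while the sum of the other 7 genes has overlapping ranges and medians of 6.37 CPM (control) and 5.3 CPM (Best1-Nrf2).

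To place the rod genes beside cones, each was set against its cone paralog within the same mouse. Of 11 cone genes, 9 were lower and 0 higher (median log2 fold change, -3.27). All 6 paralogs used here were called lower: *Gnat2* (-2.19), *Pde6c* (-3.25), *Pde6h* (-5.93), *Cnga3* (-3.04), *Cngb3* (-1.98) and *Arr3* (-4.80). In 6 of 7 pairs the change within mice was less negative for the rod gene than for the cone gene. *Pde6c*, which forms the catalytic dimer of cones alone, served for both *Pde6a* and *Pde6b*.

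The difference of log2 ratios, rod minus cone, was 2.51 ± 0.98 for *Pde6a* and *Pde6c* (SD, n = 9; 95% interval, 1.73 to 3.26), above 0 in 9 of 9 mice (2-sided exact sign-flip permutation test, adjusted over 7 pairs, p = 0.0182). It was 2.43 ± 1.37 for *Cnga1* and *Cnga3* (exact permutation adjusted p = 0.0182), 2.21 ± 1.61 for *Cngb1* and *Cngb3* (0.0205) and 1.99 ± 1.71 for *Gnat1* and *Gnat2* (0.0219), each above 0 in 8 of 9 mice. *Pde6b* and *Pde6c* differed by 2.47 ± 2.59 (exact permutation adjusted p = 0.0228, 8 of 9 mice), but with a prior count of 0.5 in place of 2 the difference was 2.23 and no longer passed (0.118). A prior count understates log2 changes of low genes, and in control eyes these 5 rod genes were lower than their paralogs.

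Both rod genes that fell gave smaller differences. *Pde6g* fell less than *Pde6h*, the cone inhibitory subunit, by 1.11 ± 0.81 (95% interval, 0.43 to 1.78; exact permutation adjusted p = 0.0182, 8 of 9 mice). Exons of *Pde6h* overlap those of *Arhgdib* on the opposite strand by 136 bases, and the sources used here do not state stranded counting. *Sag* and *Arr3*, the cone arrestin, changed by -4.85 and -4.82 on average within mice. Their difference was -0.03 ± 0.90 (95% interval, -0.82 to 0.79; exact permutation p = 0.934; adjusted, 0.934), below 0 in 5 and above 0 in 4 mice. The control eyes with the highest *Sag*, replicates 1, 2 and 9, also had the highest *Arr3* of their group, at 153, 210 and 379 CPM, and the Best1-Nrf2 eye of mouse 6 was the highest of its group for both.

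**Figure D3:**
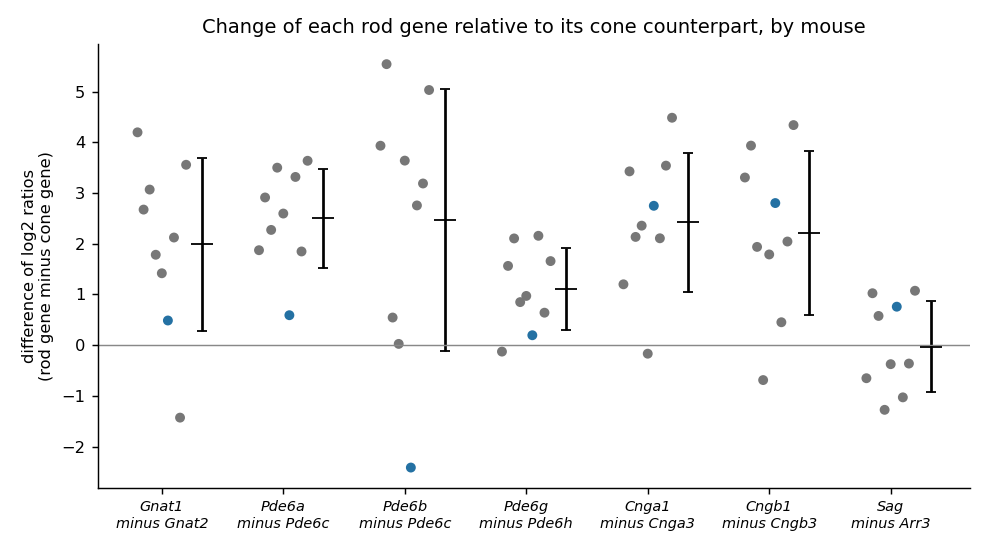
Difference between the within-mouse log2 ratios (Best1-Nrf2 against control) of a rod gene and its cone paralog in 7 pairs, with a point per mouse, mouse 6 in blue, and the mean ± SD beside them. Values above 0 mean that the change of the rod gene was less negative. *Pde6a* lies above 0 in all 9 mice, and *Sag* is spread around 0.

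**Figure D4:**
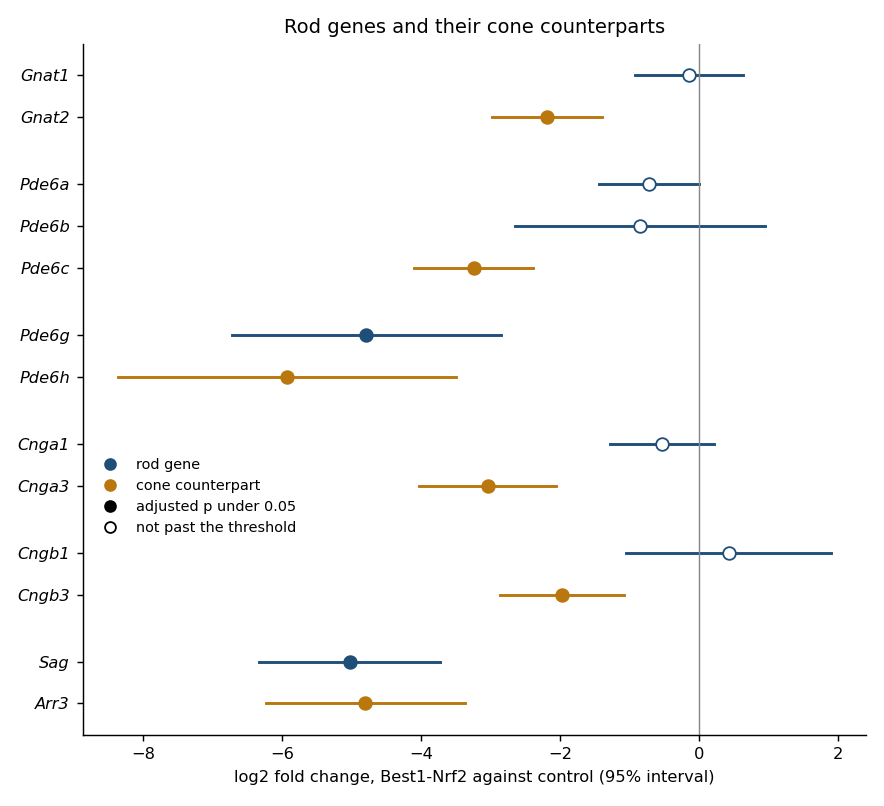
Log2 fold change (Best1-Nrf2 against control) with its 95% interval from the edgeR fit for 7 rod genes and 6 cone paralogs, grouped by function. Filled points passed an adjusted p of 0.05. All 6 cone genes are filled, and of the rod genes only *Sag* and *Pde6g*.

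Of 36 further rod and outer segment genes, 35 were tested, 16 were lower and 1 was higher (median log2 fold change, -1.66). Without mouse 1 or mouse 7, 9 were lower. The median was -0.18 over the 18 of them with at least 10 counts in every library. That filter removed genes with fewer counts in any Best1-Nrf2 eye, among them all the lower genes named here. The value of -0.18 therefore cannot show that well-counted genes changed less. Many genes of the list also work in cones. *Pdc*, phosducin, which binds transducin beta-gamma (-5.55), *Cabp4*, a regulator of the synaptic calcium channel (-5.48), and *Rcvrn*, recoverin (-4.83), fell most. *Impg1*, of the matrix between photoreceptors (-4.80), *Aipl1*, a chaperone of phosphodiesterase (-4.79), *Prph2*, peripherin of the disc rim (-4.65), *Gngt1*, transducin gamma (-4.34), and *Mak*, a ciliary kinase (-4.01), fell as well. *Rom1*, a partner of peripherin, was the single gene that rose (1.53 in 9 of 9 mice, edgeR adjusted p, 0.00309) and was picked out after its value was seen.

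Of 11 photoreceptor transcription factors, 10 were tested, 1 was lower and none rose, with a median log2 fold change of -0.28. *Crx*, which drives both rod and cone genes, was the one that fell (-3.38, with an SE of 0.77), and 8 of 9 mice were lower (edgeR adjusted p, 0.0258). Without mouse 1, 3, 4, 5, 7 or 9 the call was lost at log2 fold changes of -3.53 to -2.996 (adjusted p, 0.0563 to 0.0793), and with no mouse block at -2.35 (0.154). *Otx2*, which the RPE also makes, was at -0.26 (adjusted p, 0.624).

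Lists of neighbouring cells moved in several ways alongside. Among 20 tested inner retina genes, 0 were lower and only *Nefm*, a neurofilament, was higher (4.66), and the median of the list was -0.08, against 1.15 with no mouse block and -1.20 without mice 2, 6 and 8. None of 13 Müller glia genes passed (median, -0.20, against 0.31 with no mouse block), and the smallest adjusted p were those of *Vim* (0.077) and *Crym* (0.202). Of 20 RPE genes, 8 were lower, led by the visual cycle genes *Rpe65* (-2.81), *Lrat* (-1.78), *Rgr* (-1.38) and *Rlbp1* (-1.16), and none was higher (median, -0.55). Only 4 passed without mouse 1, 2 or 7, and 5 without mouse 3, 5 or 9. Of 17 macrophage and microglia genes, 9 were higher, with *P2ry12* (2.45), *Adgre1* (2.28), *Tyrobp* (2.01) and *Fcer1g* (1.94) in front (median, 1.65). None was called lower, although 2 had negative log2 fold changes.

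Of 10 fibroblast genes only *Col3a1* was higher (1.15), a call lost without mouse 1, 2, 3, 5, 7 or 9 and with no mouse block, and of 10 endothelial genes none passed, *Ramp2* (adjusted p, 0.102) and *Emcn* (0.742) being the closest. All 8 Nrf2 targets were higher (median, 3.80), led by *Srxn1* (5.56), *Gclc* (4.72), *Hmox1* (4.50) and *Txnrd1* (4.08). The part of these cells in the rod gene values was not tested beyond the inner retina covariate above.

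**Figure D5:**
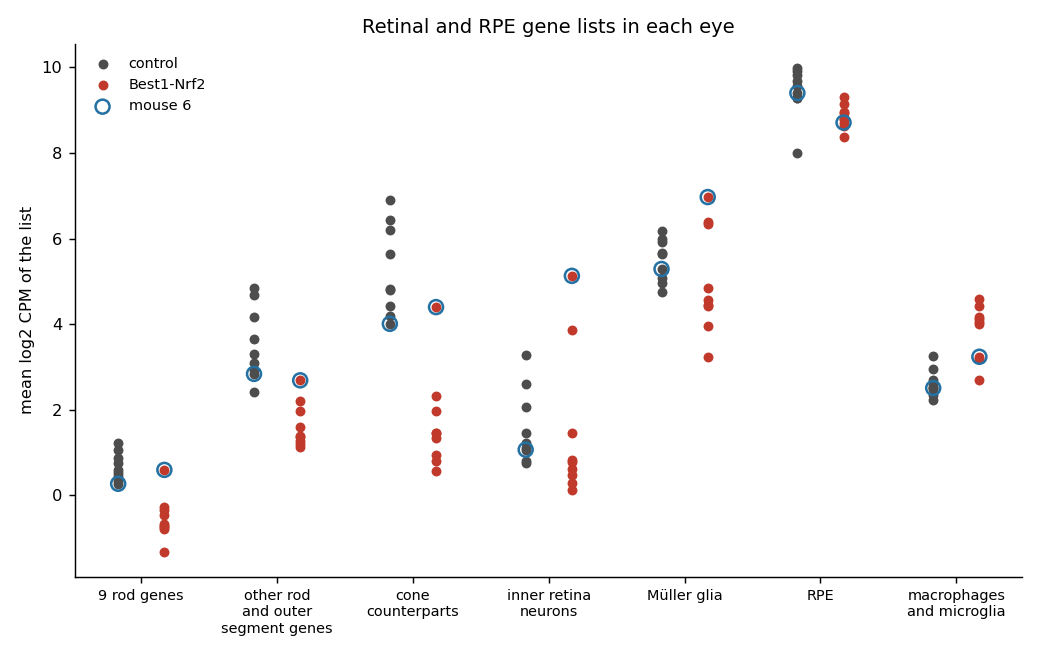
Mean log2 CPM of 7 gene lists in each of the 9 control and 9 Best1-Nrf2 eyes, with both eyes of mouse 6 ringed. The Best1-Nrf2 eye of mouse 6 is the highest of its group for the 9 rod genes (0.60), the cone list (4.40), the inner retina list (5.13) and the Müller glia list (6.97).

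The likeness of other genes to the mean of the 7 tested rod genes was read over 18 libraries after the group means were taken out. *Mtss1* (r = 0.864), *Hook1* (0.863), *Cuedc1* (0.815), *Ppfia2* (0.789) and the cone transducin gamma gene *Gngt2* (0.785) were the most like it among 15023 genes. The rank correlations were 0.839, 0.816, 0.713, 0.688 and 0.709. These values describe the eyes measured, which share libraries and depth. Of the 5, only *Gngt2* passed the test between groups (-3.27, edgeR adjusted p, 0.0229).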

How the data were processed

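RNA of 18 eyecups was analysed, 9 per group, with both eyes of each of 9 mice. The authors deposited a table of integers by Ensembl gene, without scaling of the libraries, which was read from its values as rounded expected counts. Their notes name FastQC and Salmon 0.8.1. Their methods name STAR alignment to mm10 and counting by featureCounts, and DESeq2 run on gene counts from Salmon through tximport. Which counter made the table is not given in the sources used here, and near-identical genes may have been split. Library totals were 18956748 to 49598700 counts. No molecular identifiers are described, so the floors given for a count of 0 cover counting error only. The labels report 2 sequencing runs without saying which library was in which, so run and other effects cannot be told apart.

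Genes passing filterByExpr were scaled by TMM and tested by quasi-likelihood in edgeR 4.0.16 (R 4.3.3), with mouse as a block and Benjamini-Hochberg adjustment over all 18958 genes tested (threshold, 0.05). Standard errors came from the F statistic and 95% intervals from its degrees of freedom. Log2 CPM used a prior count of 2. Rod and cone pairs were compared by 2-sided exact sign-flip permutation tests over 9 mice (smallest p, 0.00391), and their 95% intervals by inverting that test. Exon lengths are the union over GENCODE M21 transcripts (GRCm38), another release than the authors'. For the rod genes, 0 to 5.77% of 31-base words also occurred in other genes. The edgeR script was tested on simulated data. The pairs come from the animal numbers in the labels. After the group means were removed, the median correlation between eyes of a mouse was -0.000949 (-0.373 to 0.644). The expression values thus showed no general likeness of paired eyes, and the pairing rests on the labels. Over 72 pairs of libraries within groups, none was a duplicate (chi-square per degree of freedom, 50.8 or more).

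All 9 rod genes are named, with their cone paralogs, *Nfe2l2*, *Crx* and *Otx2*, and in each other list up to 4 genes (8 for photoreceptor lists) with the largest change among those that passed, or the 2 with the smallest adjusted p. The 5 genes of likeness had a mean log2 CPM of at least 0. The rod genes, the lists and the tests were chosen with earlier results of these data known. Alternatives were no replicate block, RLE and upper-quartile scaling, DESeq2 1.42.0, limma voom 3.58.1 with sample weights, no count filter, at least 10 counts in every library, an inner retina covariate, prior counts of 0.5 and 5, and leaving out each mouse. No library was left out of the main results. A further gene of these lists is not reported here.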

Additional observations from a re-analysis of the deposited data

Results flagged for a closer look

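A gap test for a sample far from its group was run on 47 sets of 9 values, the levels and differences reported above, and 5 were singled out, where chance alone would give 2.35. *Pde6a* in Best1-Nrf2 replicate 3 was at 1.65 log2 CPM, with the next eye at 0.015. *Nrl* in Best1-Nrf2 replicate 6 was at -2.83 log2 CPM, next to -3.55, which are 3 counts and 1 count. The difference between eyes in the ratio of *Cngb1* to *Cnga1* was -3.35 on the log2 scale in mouse 4, with the next mouse at 0.063, and the *Cngb1* count of its Best1-Nrf2 eye was 0. The mean level of the cone genes was 4.40 log2 CPM in Best1-Nrf2 replicate 6, with the next eye of its group at 2.33. The mean level of the RPE markers was 7.99 log2 CPM in control replicate 8, with the next at 9.28.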

How the results depend on the processing

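The count of 2 rod genes lower, *Sag* and *Pde6g*, was the same under all alternatives run, with log2 fold changes from -5.55 to -4.65 and from -5.66 to -3.65. By the labels, the mouse block pairs eyes of the same animal. With no replicate block, the log2 fold changes of *Sag* and *Pde6g* were -4.65 and -3.65 and still passed, and the rod and cone differences kept their calls, while the calls in the transcription factor list (0) and the fibroblast list (0) were lost and the Müller glia list had 1. Prior counts turned the difference in the ratio of *Pde6b* to *Pde6a* to 0.11 at 5, and took *Pde6b* against *Pde6c* out of the calls at 0.5 (2.23). Leaving out each mouse gave -0.17 to 0.13 for *Sag* against *Arr3*, -0.37 to 0.40 for the ratio of *Pde6b* to *Pde6a* and 0.49 to 1.27 for that of *Cngb1* to *Cnga1*. *Gnat1* was at -0.61 with no replicate block, ran from -0.25 to 0.12 when each mouse was left out, and changed sign without mouse 8 (0.12) and without mice 2, 6 and 8 (0.18), where *Cngb1* was at -0.0636, all far from the threshold.

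Calls in the lists moved more. Leaving out each mouse gave 10 to 17 for other rod genes, 0 to 3 for transcription factors, 1 to 3 for inner retina, 0 to 1 for Müller glia, 4 to 9 for RPE, 0 to 2 for fibroblasts and 0 to 1 for endothelium. Fewer RPE genes passed without mouse 1, 2 or 7 (4 each) and mouse 3, 5 or 9 (5 each), other rod genes without mouse 1 or 7 (10 each), and *Col3a1* was lost without mouse 1, 2, 3, 5, 7 or 9. With at least 10 counts in every library, 7 other rod genes, 0 transcription factors and 0 inner retina genes passed, from 18, 8 and 12 tested. *Crx* was not among those tested, since its lowest count in Best1-Nrf2 eyes was 8. This filter can remove genes because they fell. DESeq2 called 3 transcription factors, 3 Müller glia, 2 fibroblast and 1 endothelial genes. Voom called 3, 2, 2 and 1, and 2 inner retina genes. With the inner retina covariate, 3 transcription factors, 3 inner retina and 1 Müller glia genes passed. Without mice 2, 6 and 8, these were 3, 4 and 1, with 0 fibroblast and 1 endothelial genes. The cause was not tested. Over all genes, 214 were lower, and 116 without mouse 1 to 320 without mouse 6, 607 by DESeq2 and 502 by voom. *Nrl* and *Nr2e3* are limited by depth, since a library at 0 may hold up to 3 counts. *Nrl* has no adjusted p in DESeq2.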
